A study of Mus musculus with 4 samples.

Results

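The contacts described here were those listed for both of 2 classes of interneuron in the adult mouse cortex, one marked by somatostatin (SST) and the other by vasoactive intestinal peptide (VIP). Nuclei came from Sst-cre; Sun1 and Vip-cre; Sun1 mice on a C57BL/6 background. In these mice a Cre driver turns on a tag on the nuclear envelope, so that a group holds whichever cells the driver has marked. The age in weeks, the sex and the number of animals pooled were not given in the sources used here. H3K27ac HiChIP, which keeps chromatin contacts whose DNA carries an acetylation mark of active promoters and enhancers, gave 1 list of interactions per cell type, each a set of paired intervals called anchors, in mm9 coordinates.

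Members were chosen by position in the lists themselves. An interaction was taken as shared when its left and right anchors each overlapped, by 1 bp or more, the left and right anchors of 1 interaction in the other list. From the SST side 1775 of 8278 interactions were shared, or 21.4% ± 1.45 (SE from leaving out each of 20 chromosomes in turn). From the VIP side 1740 of 6733 were shared, or 25.8% ± 1.32. These percentages follow from the choice of members and are a description. The lists hold no read count, score or replicate value, so no test between cell types was possible. A contact that a list lacks may still exist in those cells. No expression values are held either, so the cell type labels could not be checked against marker genes. The intervals given below are exact 95% binomial intervals. They cover counting error only and take contacts as independent, although contacts share anchors.

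SST and VIP cells are both inhibitory neurons that use GABA, but they arise from different parts of the embryonic ganglionic eminence, SST cells from the medial and VIP cells from the caudal part. A distal enhancer acts on a promoter through a chromatin loop, and a promoter can be linked to several enhancers at once. Contacts between acetylated regions are therefore used as a map of candidate enhancer and promoter pairs. Regions are named by coordinate, because an mm9 annotation was not used here. Gene names at 5 loci (Sox2, Gad1, Dlx1, Dlx2 and Npas3) are given as background knowledge of where these genes lie in mm9 and were not checked against an annotation.

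The clearest named example joined 2 gene loci of inhibitory neurons on chromosome 2. The SST interaction joined 70392430 to 70422278, an anchor at the locus of Gad1, with 71348177 to 71387539, an anchor at the locus of the paired genes Dlx1 and Dlx2. Gad1 encodes an enzyme that makes GABA, and Dlx1 and Dlx2 encode homeodomain transcription factors of forebrain inhibitory neurons. Its distance was 960.5 kb between anchor midpoints. In VIP the counterpart joined 70392430 to 70432975 with 71345229 to 71387539, at 953.7 kb. It was the fourth longest of the 1775 shared SST interactions, and it was listed in both cell types.

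Promoter sequences of 4 genes are shown because the loci of these genes are hubs of shared contacts, as described below. They are RefSeq sequences of build GRCm38.p6, from 250 bases before to 50 bases after the gene's start, written in the direction of the gene. All 4 genes asked for were matched by symbol. Capitals mark matches on either strand to 3 motifs. The CCAAT box was searched as CCAAT. The GC box was searched as GGGCGG. A homeodomain core was searched as TAATTA.

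Sox2: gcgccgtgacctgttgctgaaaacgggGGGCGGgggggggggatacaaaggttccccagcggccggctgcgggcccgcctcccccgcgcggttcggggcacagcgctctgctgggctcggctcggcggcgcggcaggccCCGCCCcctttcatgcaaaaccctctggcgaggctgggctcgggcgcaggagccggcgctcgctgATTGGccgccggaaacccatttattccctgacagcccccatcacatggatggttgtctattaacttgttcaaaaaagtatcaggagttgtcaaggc
Gad1: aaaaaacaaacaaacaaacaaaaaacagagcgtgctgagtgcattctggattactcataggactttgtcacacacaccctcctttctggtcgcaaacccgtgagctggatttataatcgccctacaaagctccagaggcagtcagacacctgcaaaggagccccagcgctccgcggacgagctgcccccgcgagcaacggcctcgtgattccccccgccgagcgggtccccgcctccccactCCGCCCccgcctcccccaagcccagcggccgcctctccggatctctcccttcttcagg
Dlx1: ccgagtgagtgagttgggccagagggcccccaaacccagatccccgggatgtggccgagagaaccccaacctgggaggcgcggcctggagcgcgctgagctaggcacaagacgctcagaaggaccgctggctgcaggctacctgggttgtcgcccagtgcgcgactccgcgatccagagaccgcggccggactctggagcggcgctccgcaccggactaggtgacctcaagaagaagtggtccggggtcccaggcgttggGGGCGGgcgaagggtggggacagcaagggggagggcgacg
Dlx2: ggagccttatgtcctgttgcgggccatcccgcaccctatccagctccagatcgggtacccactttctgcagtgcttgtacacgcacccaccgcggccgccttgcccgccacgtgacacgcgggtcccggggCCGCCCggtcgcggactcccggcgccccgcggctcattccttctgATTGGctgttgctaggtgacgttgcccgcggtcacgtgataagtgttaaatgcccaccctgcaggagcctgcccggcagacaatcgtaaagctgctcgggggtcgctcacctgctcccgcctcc

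Each of the 4 windows held GGGCGG, with 2 matches in Sox2 and 1 in each of the others, while Sox2 and Dlx2 also held 1 CCAAT match. None held TAATTA. Of 32851 RefSeq promoter windows of this kind, 35.7% held GGGCGG, 37.4% held CCAAT and 5.29% held TAATTA, so the first and second are common among promoters. A match describes the letters only.

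Counterparts were usually single. Of the shared SST interactions 1582, or 89.1%, had 1 counterpart in VIP and 160 had 2, while 33 had 3 or more. Of the shared VIP interactions 1500, or 86.2%, had 1 counterpart in SST. Over 1280 pairs that matched each other alone, the distance differed between the lists by a median of 2.73 kb (quartiles 0.987 to 6.56 kb). The 1913 pairs of overlapping anchors behind these contacts had a median of 67.9% of their joint span in common (quartiles 42.8 to 89.2%). In 76.8% the narrower anchor lay wholly within the wider one, and 45.0% had the same start or the same end to the base, although only 8.73% had both. These pairs were chosen because they overlap, which largely fixes the closeness of their positions. Only 36.9% of all SST anchors and 43.5% of all VIP anchors overlapped an anchor of the other list.

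The 1 bp limit decided few members. Of the shared SST interactions 10 had a smaller overlap of under 1 kb, and the smallest, 259 bp, belonged to several contacts of 1 anchor pair on chromosome 6, SST 135727255 to 135761251 and VIP 135677997 to 135727514. Just outside, 4 SST interactions met their nearest VIP interaction at a gap of 0 bp, for example on chromosome 12 where an SST anchor ended and a VIP anchor began at 55128823. A further anchor pair on chromosome 18, SST 25796346 to 25845713 and VIP 25782680 to 25796340, was 6 bp apart. In all 46 of the 6503 unshared SST interactions were within 1 kb of a counterpart.

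Shared contacts were spread unevenly. The 10 windows of 1 Mb with the most of them held 258, or 14.5% (12.9 to 16.3%), of the shared SST interactions, and the 10 fullest windows of the whole SST list held 8.95% of that list. The windows richest in shared interactions held 5.57% of all SST interactions. Shared SST interactions reached 50% of their number in 71 windows, and all SST interactions in 126. The shared set is much smaller than the list, which by itself favours fewer and fuller windows, and its size was not adjusted for. Of 926 windows with an SST interaction 444 held a shared one, and these were 74.1% of the 599 windows that had interactions from both lists. The windows were picked as the richest, so their counts are a description.

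The first window, chromosome 12 from 54 to 55 Mb, held 84 SST interactions of which 49 were shared, and 58 VIP interactions of which 45 were shared. It covers much of the locus of Npas3, a neuronal transcription factor gene. On chromosome 2 from 30 to 31 Mb, the shared interactions numbered 42 of 66 in SST and 43 of 62 in VIP. These were the only windows among the 10 with more than 40 shared interactions in each list.

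The other windows showed different balances of the lists. On chromosome 1 from 166 to 167 Mb, 25 of 27 VIP interactions were shared but only 25 of 56 SST interactions. On chromosome 12, in the window that ends at 102 Mb, likewise, 25 of 26 VIP interactions were shared against 24 of 58 in SST. In both windows nearly all VIP contacts thus had a counterpart in SST.

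On chromosome 17 the balance was the opposite. From 25 to 26 Mb 22 of 35 SST interactions were shared and 22 of 77 VIP interactions, and from 27 to 28 Mb 19 of 33 and 19 of 57. The remaining windows were chromosome 2 from 70 to 71 Mb (20 of 36 SST and 19 of 24 VIP interactions), chromosome 3 from 34 to 35 Mb (20 of 34 and 18 of 29), chromosome 10 from 80 to 81 Mb (19 of 28 and 18 of 34) and chromosome 4 from 151 to 152 Mb (18 of 31 and 20 of 25). The window on chromosome 2 from 70 to 71 Mb holds the Gad1 locus and that on chromosome 3 the locus of Sox2, a transcription factor gene of neural progenitors. Over the 10 windows the shared portion was 56.0% for SST and 60.6% for VIP, and outside them 19.4% and 23.5%.

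**Figure D1:**
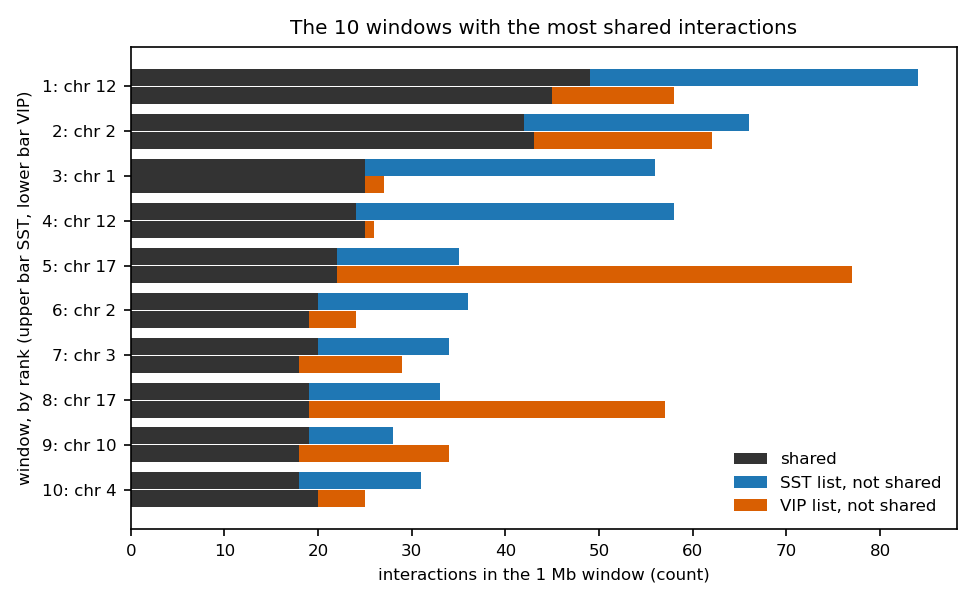
Interactions in the 10 windows of 1 Mb with the most shared SST interactions, ranked and labelled by chromosome; the upper bar of a pair is the SST list and the lower the VIP list, with shared interactions dark and the others coloured. The VIP bars of ranks 3 and 4 are dark almost to the end (25 of 27 and 25 of 26), while those of ranks 5 and 8 on chromosome 17 are mostly coloured.

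Among the 242 windows with 20 or more interactions of both lists together, the median share that was in both lists was 24.4%. In 43 windows it was above 50%, and in 55 it was 0. The highest was 76.2% on chromosome 12 from 55 to 56 Mb, directly beside the richest window, with 8 of 12 SST and 8 of 9 VIP interactions. Next came chromosome 5 from 139 to 140 Mb at 74.4% (14 of 20 and 15 of 19), chromosome 8 from 12 to 13 Mb at 72.3% (17 of 26 and 17 of 21) and chromosome 13 from 110 to 111 Mb at 69.6% (9 of 12 and 7 of 11). The remaining 6 were chromosome 4 from 151 to 152 Mb, chromosome 17 from 86 to 87 Mb, chromosome 2 from 22 to 23 Mb, chromosome 6 from 86 to 87 Mb and the leading windows of chromosomes 2 and 12, at 66.2 to 67.9%. On chromosome 2 from 22 to 23 Mb all 9 VIP interactions were shared, with 9 of 18 in SST.

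To count each shared contact once, overlapping anchors of the lists were joined into loci. The shared interactions then came to 1525 pairs of loci among 1641 loci, and a further 32 loci contained both anchors of a shared interaction and gave no pair. A pair is called a link below. Of the 1641 loci 1006, or 61.3% (58.9 to 63.7%), had a single shared link, and 108, or 6.58%, had 5 or more. Those 108 loci took part in 637 links, 41.8% of all. A minority of busy loci thus carried much of what the lists had in common. The same count was not made for all links of either list, so this is not given as a trait of shared contacts.

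The 16 loci with 9 or more shared links were chosen as the top 10 with ties. The highest count was 16, at chromosome 2, 30538686 to 30584209, and at chromosome 3, 34531738 to 34580174, the Sox2 locus. The chromosome 2 locus had 5 further links in SST alone and 2 in VIP alone, and its shared links ran from 32.5 to 583 kb with a median of 141 kb. The Sox2 locus had 13 further SST links and 5 further VIP links, and its shared links ran from 91.3 to 825 kb with a median of 407 kb. Of the 16 shared links at the Sox2 locus 13 ran to the left.

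The Dlx1 and Dlx2 locus, 71345229 to 71387539 on chromosome 2, had 13 shared links, 8 SST-only and 10 VIP-only ones. The Gad1 locus, 70392430 to 70433611, had 9 shared, 5 SST-only and 4 VIP-only links, and its median shared distance was 457.5 kb. Both were busy in both lists, with additional partners in each.

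A locus on chromosome 1, 166361581 to 166397613, also had 13 shared links, all to its right. It had 9 SST-only links and no VIP-only link, so that each of its VIP links was shared. The same was true of loci on chromosome 12 at 101525686 to 101570727 (10 shared and 4 SST-only links), chromosome 1 at 75538809 to 75566326 (9 and 4) and chromosome 12 at 54344636 to 54368763 (9 and 5). The last starts the locus of Npas3, and its 9 shared links all ran to the right, as far as 795 kb.

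The other loci of the 16 were as follows. A locus on chromosome 8, 12379376 to 12411281, had 12 shared links and one on chromosome 17, 25936087 to 25955064, had 11. The latter had the lowest median shared distance of the 16, 50.3 kb, against 247 kb on chromosome 8, although its farthest shared link was 404.5 kb long. The remaining 6 had 9 shared links each and lay on chromosome 10 (79588928 to 79618481), chromosome 12 (54664022 to 54795546), chromosome 6 (136086554 to 136127098) and, 3 of them, chromosome 2 (30317167 to 30332197, 30444769 to 30465415 and 30479830 to 30536437). The chromosome 12 locus, 131.5 kb wide, joined 3 SST and 2 VIP anchors and had 10 VIP-only and 4 SST-only links.

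The 1525 links formed 427 separate networks, in which every locus could be reached from every other by shared links. Of these 191, or 44.7%, were a single link between 2 loci, 90 joined 3 loci, and 146 joined 4 or more. The 25 networks of 10 or more loci held 428 links, 28.1% of all. A network spanned a median of 229 kb from the outer edge of its first locus to that of its last, and 24 spanned more than 1 Mb.

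The largest network lay on chromosome 2 from 29972926 to 32220883, a span of 2248 kb, with 23 loci and 49 shared links. Of these loci 16 lay between 29.9 and 30.7 Mb, and the busiest, with 16 links, stood in this group. To the right, a locus at 31098387 to 31143525 had 7 shared links, the farthest 906 kb long, and 4 more loci lay between 32004075 and 32220883. Inside the network 13 links were listed in SST alone and 4 in VIP alone.

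The second network, also on chromosome 2, ran from 69853291 to 71829637 with 20 loci and 28 links and contained the Gad1 and Dlx loci. The Dlx locus was linked to 13 of the other loci, at 75.2 to 953 kb. Inside the network 5 links were SST-only and 4 VIP-only. The third, on chromosome 12 from 54156119 to 55515699 at the Npas3 locus, had 12 loci and 27 links, 40.9% of the links possible among them. The fourth, on chromosome 1 from 166361581 to 167064393, had 14 loci and 26 links, with 25 SST-only links leading out of it and no VIP-only one. The fifth, on chromosome 12 from 101422234 to 101879893, had 12 loci and 22 links. There SST listed 18 more links inside the network and 15 leading out, and VIP listed 1 and 0.

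Networks differed in form. In a mesh, loci linked to a common partner are also linked to each other, and in a star they are not. Over all networks there were 3394 paths of 2 shared links through a common locus, and in 1182 of them, 34.8% (33.2 to 36.5%), the outer loci were themselves joined by a shared link. This made 394 triangles. Among the 38 networks with 10 or more links the percentage ran from 0 to 100, with a median of 39.9%. In 12 of them more than 50% of paths were closed, and in 5 none was. In the 20 networks where the busiest locus held more than 50% of the links the median was 27.5%, against 51.3% in the other 18, and a single hub with separate partners closes no path by construction.

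The clearest forms were picked after their values were seen. A star on chromosome 8 from 11725320 to 12674823 had 13 loci and 12 links, all of which ended at the locus 12379376 to 12411281, at 33.4 to 666.5 kb. No path was closed, and neither list had a further link between its loci. The Sox2 network, chromosome 3 from 33916946 to 35384022, came close to this form, with 17 loci, 16 of 17 links ending at the Sox2 locus and 2.46% of paths closed. Among these same loci closure was 7.03% over all 19 SST links and 13.0% over all 21 VIP links. The loci were set by the shared links, which are part of both counts. A further 13 SST-only and 6 VIP-only links led out of the network and were not counted.

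The fullest mesh was on chromosome 12 from 29801609 to 30466184. Its 5 loci had all 10 possible links as shared links, which are in both lists by definition, between loci up to 616 kb apart. Its leftmost locus, 29801609 to 29833265, had 17 more links in VIP alone and 1 in SST alone. A network on chromosome 5 from 139227574 to 139628912 had 12 links among 6 loci, 80% of those possible, with 78.9% of paths closed. The Npas3 network closed 54.5%, and 68.5% and 57.2% when all SST or all VIP links inside it were counted. The Dlx and Gad1 network closed 27.3%.

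**Figure D2:**
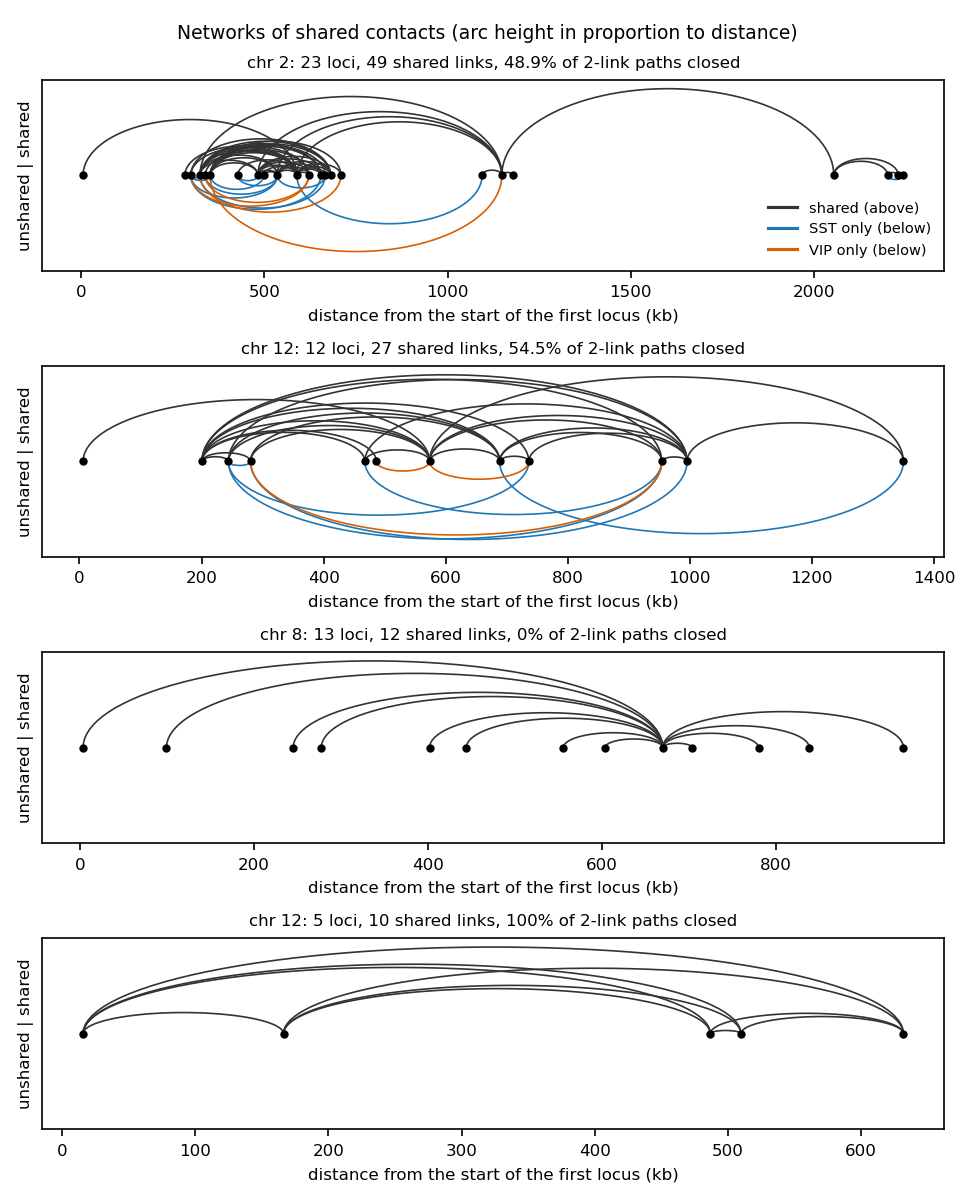
Shared links (dark arcs, above the line) and links of 1 list among the same loci (coloured arcs, below) in 4 networks, against distance in kb from the start of the first locus; points are loci. The chromosome 8 network is a star with 12 links through 1 locus, and the last chromosome 12 network has all 10 links among its 5 loci.

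**Figure D3:**
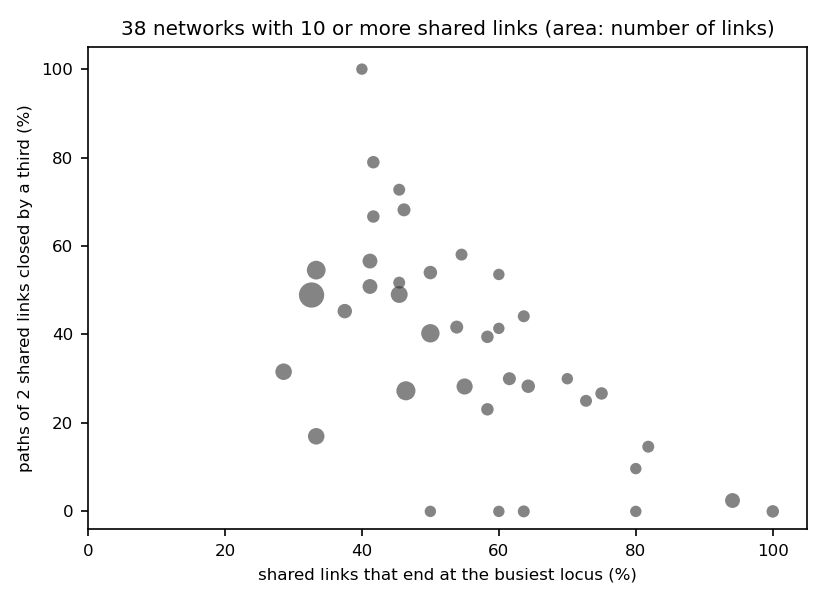
The percentage of paths of 2 shared links whose outer loci were also linked, against the percentage of links that ended at the busiest locus, for the 38 networks with 10 or more links; point area is in proportion to the number of links. Closure lies between 0 and 100% and is 0 for the chromosome 8 star at the right edge; the axes are linked by construction.

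Where a path was not closed in both lists, the outer pair was usually linked in neither. Of the 3394 paths 45.1% (43.4 to 46.7%) had outer loci linked in neither list, 10.8% in SST alone and 9.28% in VIP alone. Of the 1550 paths whose outer loci SST linked, 76.3% had them linked in VIP too. Of the 1497 whose outer loci VIP linked, 79.0% had them linked in SST too. Counted by interaction, 72.5% of the 2449 SST interactions with both anchors in the VIP list were shared, and 74.8% of the 2327 VIP interactions with both anchors in the SST list. A triangle of shared links counts once from each of its loci, so percentages of paths and of interactions are unlike measures. These paths share loci, so the counts are not independent. Closure by a shared link was 44.0% (41.0 to 47.0%) for outer loci up to 100 kb apart and 25.1% (22.1 to 28.2%) for those more than 400 kb apart. Between these distances it was 31.1% at 100 to 200 kb and 35.1% at 200 to 400 kb, so it did not fall evenly.

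For comparison, 37.7% of the paths of 2 SST links and 40% of those of 2 VIP links were closed within their own list. Links that a list did not share closed 35.0% of their paths in SST and 36.0% in VIP. The shared links, at 34.8%, were close to both of the latter. The shared links are part of each whole list and the sets differ in size, and the difference was not tested.

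Anchors of shared contacts also had other contacts. In SST 1794 anchors, 30.7% of the 5842 in the list, took part in a shared interaction, and in VIP 1766 of 4850, or 36.4%. Another 359 SST and 346 VIP anchors overlapped an anchor of the other list without sharing any contact. The median number of interactions was 2 for anchors of shared contacts and 1 for all other anchors, in SST as in VIP. An anchor with more contacts has more chances to share 1, which bears on this comparison.

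The interactions at these anchors numbered 4389 in SST, 53.0% of the list, and 40.4% ± 1.56 of them were themselves shared. In VIP they numbered 3968, 58.9% of the list, of which 43.9% ± 0.937 were shared. Every shared interaction is among these, so both percentages exceed those of the whole lists by the choice of anchors. All contacts were shared at 781 of the 1794 SST anchors, 43.5% (41.2 to 45.9%), and at 884 of the 1766 VIP anchors, 50.1% (47.7 to 52.4%). An anchor with 1 contact in all is of this kind by definition, and such anchors were not counted apart. The remaining anchors had at least 1 contact that the other list did not hold.

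These other contacts led mostly to anchors that the other list did not have. Of 2614 such SST interactions 2007, or 76.8% (75.1 to 78.4%), had a partner anchor outside the VIP list, and the other 607 joined anchors that VIP also had. Of 2228 such VIP interactions 1688, or 75.8% (73.9 to 77.5%), had a partner outside the SST list. Over all unshared interactions with an anchor in the other list, the values were 78.8% of 3178 in SST and 78.3% of 2708 in VIP. The 2614 and 2228 interactions above make up most of these, so the values are close by construction and no comparison is drawn. Leaving out shared contacts also removes most of those whose 2 anchors were both present in the other list. Between loci of shared links, 380 SST-only and 348 VIP-only links were listed. Most of these stayed within a network, with 67 and 71 between different networks, and adding them took the 427 networks to 392 and 393.

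Counted by locus, 368 of the 1641 loci, 22.4% (20.4 to 24.5%), had no link beyond the shared ones in either list. Another 471 had SST-only links, 369 had VIP-only links and 433 had both kinds. Loci with a single shared link had a mean of 1.31 SST-only and 1.099 VIP-only links, and the 108 loci with 5 or more shared links had 3.81 and 3.27. The busier loci were also wider, with a median of 36.2 kb against 14.0 kb, and the part of width in this was not tested. At the 24 loci with 8 or more shared links the means were 5.75 and 2.71. The order of the lists was not kept throughout. VIP-only links were the more numerous at loci with 5 shared links (means of 2.82 SST-only and 3.53 VIP-only) and with 7 (3.67 and 4.06). In the other classes SST-only links were the more numerous. The SST list is the longer one, and its length was not adjusted for here.

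**Figure D4:**
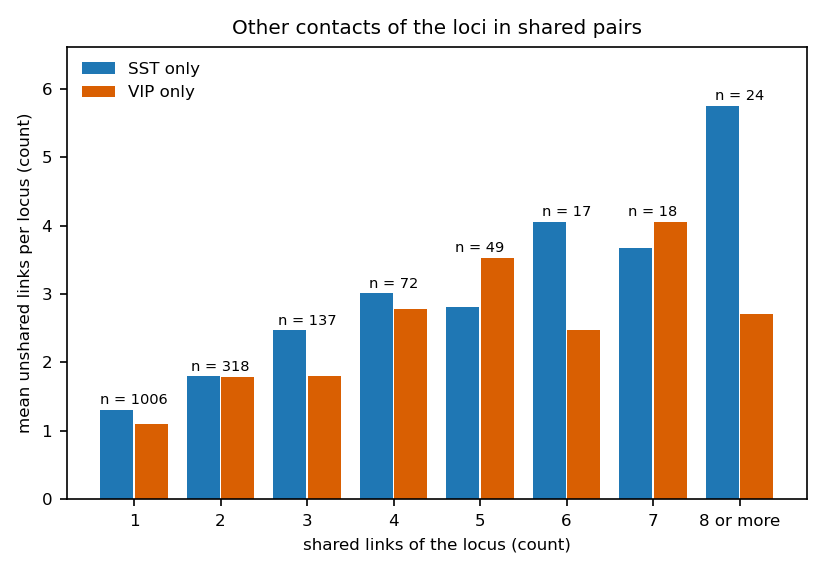
Mean number of links listed in SST alone or in VIP alone per locus (bars, starting at 0), against the number of shared links of the locus; n is the number of loci. Loci with 1 shared link had means of 1.31 and 1.099, and the 24 loci with 8 or more had 5.75 and 2.71. The VIP-only bar is the higher at 5 and at 7 shared links, and the SST-only bar elsewhere. No error bars are drawn because loci are not replicates.

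Other contacts tended to leave a locus on the side of its shared contacts. At the 1313 loci whose shared links all ran to 1 side, 66.2% (64.0 to 68.3%) of 1959 SST-only links and 67.1% (64.8 to 69.3%) of 1780 VIP-only links ran to that side. A locus with a single shared link is of this kind by definition. How often links of a locus in general run to the same side was not counted, so this is not given as a trait of shared contacts.

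Distance was not used in choosing the members. Shared contacts ranged from 8.68 to 983 kb on the SST side and from 8.68 to 986 kb on the VIP side, with medians of 119 kb ± 17.9 and 118 kb ± 13.4. The other contacts of the same anchors had medians of 219 kb ± 15.7 and 235 kb ± 19.7. Anchor by anchor the direction was mixed, and the size of the difference was not measured. The other contacts had the longer median at 54.0% (50.9 to 57.1%) of 1013 SST anchors with both kinds. In VIP this held at 51.2% (47.9 to 54.6%) of 882 anchors. A contact can count at both of its anchors, so anchors are not independent and the lists were not compared on this.

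The closest comparison is with interactions whose anchors both overlapped anchors of the other list without forming a contact there, 674 in SST and 587 in VIP. Their medians were 139 kb ± 14.9 and 184 kb ± 22.3. Shared minus these was -19.5 kb ± 19.0 in SST, about the size of its error, with the shared median the lower on 9 of 19 chromosomes. It was -66.1 kb ± 24.7 in VIP, lower on 14 of 19. The sign turned when interactions of up to 200 kb alone were kept (16.0 kb in SST and 9.81 kb in VIP), in SST for anchors under 20 kb wide (15.7 kb) and in VIP when anchors within 5 kb were merged (4.25 kb). The direction of this difference therefore depended on the setting. Interactions with 1 anchor in the other list had the highest median of the classes in both lists, 244.9 kb in SST and 240.9 kb in VIP.

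**Figure D5:**
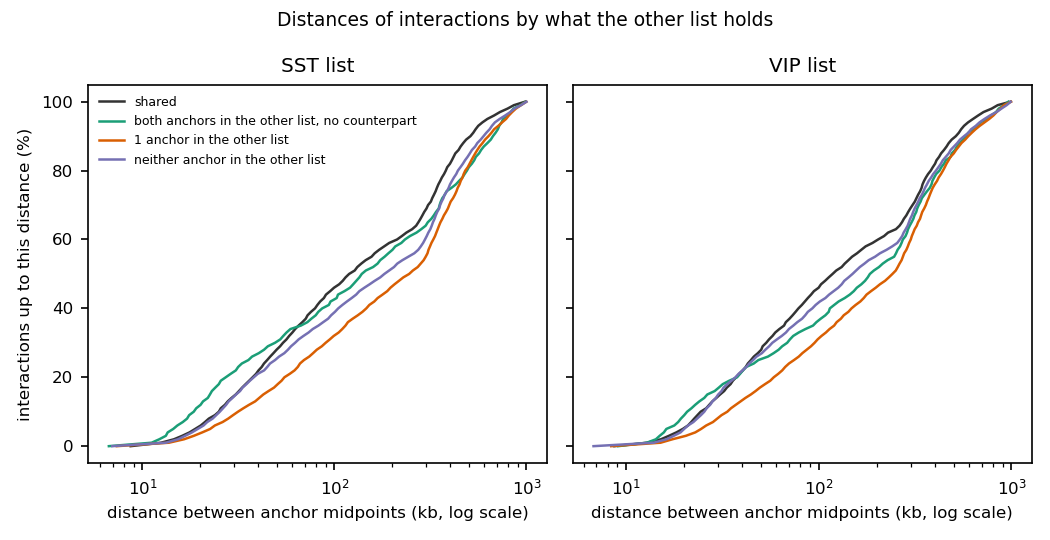
Cumulative percentage of interactions against distance between anchor midpoints (kb, log scale) in each list, by what the other list holds. The curve for interactions with 1 anchor in the other list lies to the right of the others up to the upper quartile, and the shared curve crosses that of unmatched contacts between anchors of both lists at short distances.

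Some shared contacts were nearly as long as any in the lists, in which no distance exceeded 999.7 kb. The longest shared SST contact, at 983 kb, joined 151812337 to 151846774 with 152807640 to 152816876 on chromosome 4, and its VIP counterpart spanned 975 kb. The next was on chromosome 1, between 81311932 to 81316221 and 82277713 to 82291413, at 970.5 kb in SST and 970.7 kb in VIP. The first anchor of this contact had the same start and end in both lists. The others of the 5 were on chromosome 9, from 46433918 to 47428326 (965.5 kb), chromosome 2 between the Gad1 and Dlx loci, and chromosome 2, from 27425917 to 28399194 (954 kb).

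The 5 shortest, at 8.68 to 9.64 kb, lay on chromosomes 17 and 8. The shortest, between 24613319 to 24618245 and 24620115 to 24628809 on chromosome 17, and the third, between 25958446 to 25963527 and 25964101 to 25976781 on the same chromosome, had identical coordinates in both lists. The 2 on chromosome 8 met at the anchor at 87498145 to 87506064, and their outer loci were also joined by a shared link, so that the 3 loci formed a triangle. Neighbouring anchors of a list, with no listed anchor between them, made up 30.7% (28.6 to 32.9%) of shared SST contacts and 32.0% (29.8 to 34.2%) of shared VIP contacts, against 21.7% and 22.9% of interactions with 1 anchor in the other list and 32.5% and 33.6% of those with neither. For unmatched contacts between anchors of both lists they were 31.2% in SST, above the shared value, and 27.3% in VIP, below it.

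Contacts with a low mean anchor width were shared more often than those with a high one, although a wide anchor meets the overlap rule more easily. This counts interactions, and when each anchor was counted once, those of shared contacts were the wider. For SST the medians were 12.9 kb at anchors of shared contacts, 10.9 kb at overlapping anchors sharing none and 11.4 kb at the rest. For VIP they were 13.7, 10.8 and 11.8 kb. Shared contacts thus did not sit mainly at narrow anchors. With a mean anchor width of up to 10 kb, the shared portion was 28.9% (24.3 to 33.8%) of 367 in SST and 38.3% (31.2 to 45.7%) of 183 in VIP. The values were 23.8% and 28.1% at 10 to 20 kb, 19.3% and 23.7% at 20 to 40 kb, and 15.4% (11.2 to 20.6%) of 246 SST and 21.5% (16.0 to 28.0%) of 195 VIP interactions above 40 kb. Within distances of 400 to 1000 kb the SST values were 25% (15.8 to 36.3%), 18%, 14.2% and 10.98% (5.14 to 19.8%) from the narrowest to the widest class. In VIP they were 37.2% (23.0 to 53.3%), 23.3%, 21.0% and 21.1% (12.3 to 32.4%). The end classes hold 43 to 82 interactions here and their intervals overlap. The order was not kept at every distance. At 200 to 400 kb the values were 23.4%, 23.9%, 18.6% and 14.9% in SST and 23.9%, 25.9%, 18.8% and 23.3% in VIP. At 0 to 50 kb the widest class, with 18 SST and 11 VIP interactions, was above the class of 20 to 40 kb, at 27.8% against 23.7% and 36.4% against 27.7%.

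At a given width, shared contacts had a lower median distance than all unshared ones in 7 of the 8 groups of width and list. At 10 to 20 kb the medians were 92.4 against 142.5 kb in SST and 100.9 against 161 kb in VIP, and at 20 to 40 kb they were 146 against 228 kb and 122 against 190 kb. The exception was VIP above 40 kb, at 319 kb for 42 shared contacts against 258 kb. The unshared contacts here include those with an anchor that the other list lacks. Against unmatched contacts between anchors of both lists, with both anchors under 20 kb wide, the medians differed by 15.7 kb in SST and -4.33 kb in VIP.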

How the data were processed

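Crosslinked nuclei from adult cortex were cut with MboI, precipitated for H3K27ac and made into libraries with Tn5, per the labels' protocols. HiC-Pro and the build mm9 are named in the submitters' processing notes. As for the caller, its threshold, the anchor set and any pooling of replicates, they were not given in the sources used here. Per the labels there are 4 samples, 2 per cell type. The lists analysed are attached to replicate 1 of each, and lists for replicate 2 were not analysed here. The authors' deposited files hold 6 columns, the chromosome, start and end of each anchor in base pairs, with no count or score, so the depth is unknown. Overlap was taken as the smaller end minus the larger start, since no source says whether starts are 0-based or 1-based.

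Members, gene names and regions were chosen with earlier results of these data known. Regions named were the 10 windows with most shared SST interactions, the 10 with the highest shared percentage at 20 or more interactions, the 5 largest networks, the 10 loci with most shared links (ties included) and the 5 longest and shortest contacts. Windows of 1 Mb place an interaction by the midpoint between its anchors. Gene lists and cell type markers were not counted, as no mm9 annotation was used. Alternatives varied the overlap, distances, chromosomes, anchor merging and windows, and those for closed paths were added after seeing the data. The overlap and network steps were tested on simulated lists and found all planted contacts. The scripts ran under Python 3.11.15 with scipy 1.17.1, pandas 2.3.3 and numpy 2.4.6, and figures were drawn in matplotlib 3.10.9. No p-value was computed.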

Additional observations from a re-analysis of the deposited data

How the results depend on the processing

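When both anchors had to be identical, 0.217% (SST) and 0.267% (VIP) stayed shared, with 18 links in 16 networks with 0% of paths closed, 66.7% of the shared SST interactions in the 10 richest windows, 19.6% and 19.8% of contacts at shared anchors shared, and shared minus unmatched medians of -166 and -602 kb. Few contacts remain there by construction. Asking for 50% of the shorter anchor, the shared portions were 20.6% and 24.8%. Allowing gaps of up to 10 kb, they were 28.6% and 33.6%, with 50.4% and 53.4% of contacts at shared anchors. There were then 983 links, and 25.2% of paths were closed. Anchors up to 10 kb apart were also joined into loci there, and the part of this in these values was not tested. Interactions of up to 200 kb gave 24.3% and 29.0%, then 51.0% and 55.7% at shared anchors, 895 links, 39.7% of paths closed and medians that differed by 16.0 and 9.81 kb. At 20 kb or more the SST medians differed by -41.1 kb and 32.9% of paths were closed. Merging anchors within 5 kb gave 41.9% at shared SST anchors, a VIP difference of 4.25 kb, 28.6% of paths closed and 12.4% in the 10 richest windows. Windows of 2 Mb gave 17.4% there. With anchors under 20 kb wide the medians differed by 15.7 kb in SST and -4.33 kb in VIP. Paths closed were 28.2% among loci of 1 SST and 1 VIP anchor and 32.6% without the 3 largest networks, both chosen after seeing the data, as were all other settings for closed paths. The causes of these changes were not tested. The other 43 values moved less than their interval, error or 1.5 times, autosomes alone, windows moved by 500 kb and networks of either list's own anchors (428 and 429) among them. No stricter list could be made without a score. No paired analysis was possible because only 1 list for SST and 1 for VIP were analysed. For the same reason no replicate was left out. As depth is unknown, a contact missing from a list may be absent or below detection.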

Other observations

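Chromosomes differed in how much their lists had in common. Chromosome 12 had the highest percentage of SST interactions shared, 33.4% (29.0 to 38.0%) of 446, and chromosome 2 the next, 31.1% (27.7 to 34.7%) of 707. Chromosome 16 had the lowest of the autosomes, 9.03% (5.93 to 13.0%) of 277, followed by chromosome 19 at 11.8% (7.38 to 17.7%) of 169. In VIP the lowest autosomes were likewise chromosomes 16 and 19, at 11.6% and 13.1%, and the highest were chromosomes 3, 6 and 14, at 32.7%, 32.4% and 32.2%. Without the 10 windows with the most shared contacts, the SST value of chromosome 12 was 25% and its VIP value 17.3%, against 28.6% with them. Chromosome 11, which holds none of them, was at 28.5% in SST and 30.5% in VIP and had the most networks, 40.

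Chromosome X held 1 shared contact among 7 SST and 11 VIP interactions. The fullest windows without any shared contact were chromosome 9 from 28 to 29 Mb (118 SST and 3 VIP interactions), chromosome 17 from 11 to 12 Mb (82 and 0) and chromosome 4 from 75 to 76 Mb (0 and 65). They hold almost no interaction of the other list, so few of their contacts could have been shared.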
